A study of Bos taurus with 2 samples.

Results

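Clusters 2 and 4 were a pair of dividing populations among cultured bovine satellite cells, the muscle stem cells that lie beside muscle fibers and give rise to new muscle cells. They were taken as the columns for clusters 2 and 4 of the authors' table of 15 clusters, and the cells behind each column were recovered from the deposited counts. Cluster 2 held 2119 cells and cluster 4 held 1768 cells, together 3887 of 19096 cells. At a similar level of cell cycle RNA, cluster 2 held more RNA of MYOD1 and of muscle genes, and cluster 4 held more RNA of collagens, other matrix genes and genes of amino acid supply, the last a group listed after its values were seen. The pair had been chosen as G2/M populations with like cell cycle levels and different MYOD1, so the levels of both are a description.

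In the G2 phase and in mitosis, a cell that has copied its DNA condenses its chromosomes, builds a spindle and divides. RNAs of cyclin B, spindle proteins and kinesins build up at this time and are removed soon after division, so they mark G2/M cells in single-cell data. MYOD1 is a basic helix-loop-helix (bHLH) transcription factor that commits cells to the muscle lineage and remains expressed while these cells divide. It pairs with E proteins on DNA, is held off by ID proteins, and later acts with MYOG to switch on the genes of contraction and fusion as cells leave the cycle.

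The cells came from longissimus muscle of 1 Holstein bull calf aged 2 weeks and were cultured for 1 week in growth medium. Single-cell RNA sequencing was done on 2 libraries, replicates 1 and 2, made from these same cells without any treatment, so no condition other than the cluster was compared and the spread between calves was not measured. In each library, unique molecular identifiers (UMIs), which count captured RNA molecules, were added up for all cells of the same cluster. Gene levels are UMIs per 10000 UMIs of that sum, either by library or as a mean with its SD (n = 2 libraries), and differences are log2 values of cluster 2 minus cluster 4.

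Replicate 1 contributed 1093 cells to cluster 2 and 909 cells to cluster 4, and replicate 2 contributed 1026 and 859 cells. Cluster 2 took 11% of the cells of replicate 1 (95% exact binomial interval 10.4 to 11.6) and 11.2% of those of replicate 2 (10.6 to 11.9). Cluster 4 took 9.15% (8.59 to 9.73) and 9.38% (8.79 to 10.0). Both shares differed between libraries by less than their counting intervals. The median cell of cluster 2 held 17396 UMIs in replicate 1 and 17631.5 UMIs in replicate 2, and that of cluster 4 held 18477 and 19102 UMIs. Cells scored as doublets, that is as droplets holding a pair of cells, made up 7.14% and 7.70% of cluster 2 and 8.14% and 9.90% of cluster 4. Among the barcodes, 27 occurred in both libraries, and 13 of these marked a cell of cluster 2 or 4.

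Of 15 clusters, clusters 2 and 4 had the highest summed levels of the 54 genes of the G2/M list. As the clusters were picked by such levels, this describes them and is no check of their label. The level was 158.0 and 153.0 in cluster 2 (replicates 1 and 2) and 145.2 and 139.2 in cluster 4. The next was cluster 7 with 101.1 ± 7.11, a cluster of shallow cells with a median of 1389 UMIs. The lowest was cluster 8 with 14.9 ± 0.026. The libraries of cluster 2 lay above those of cluster 4. The 43 genes of the S phase list, which act in DNA replication, summed to 33.6 ± 0.65 in cluster 2 and 33.3 ± 0.60 in cluster 4, and here the libraries overlapped.

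Markers of cell types outside the muscle lineage were checked as whole lists. Among 12 endothelial markers, PLVAP, TIE1 and ERG had 0 UMIs in both clusters, and the list summed to 0.026 ± 0.0087 in cluster 2 and 0.027 ± 0.0070 in cluster 4. Among 13 immune markers, 5 were at 0, with PTPRC, the pan-leukocyte marker, among them, and the sums were 0.050 ± 0.00019 and 0.048 ± 0.0033. Among 8 glial markers, SOX10, FOXD3 and CDH19 were at 0, and the sums were 0.34 ± 0.017 and 0.28 ± 0.033, mostly from S100B. These lists gave few tested genes, of which CLDN5 was called higher in cluster 2 with 39 against 10 UMIs and LYZ higher in cluster 4 with 34 against 14 UMIs. Neither was called with DESeq2, a different test, and with doublets left out no endothelial marker was called. The lists of fibro-adipogenic and of smooth muscle and pericyte markers were well above 0 and are given with the matrix genes.

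Between cluster 2 and cluster 4, 3497 of 11561 genes tested (30.2%) were called at an adjusted p under 0.05 by edgeR's quasi-likelihood test. Of these, 1679 (14.5%) had the higher level in cluster 2 and 1818 (15.7%) in cluster 4. These shares are the level to set beside the counts of each gene list below. A difference over 1.5-fold was found for 1142 called genes (9.88%), 419 (3.62%) in favor of cluster 2 and 723 (6.25%) in favor of cluster 4, and at over 2-fold the counts were 210 (1.82%) and 327 (2.83%). With doublets left out, 1670 genes favored cluster 2 and 1799 favored cluster 4. With DESeq2 in place of edgeR the counts were 1108 and 1042, with every cell thinned to 5000 UMIs they were 992 and 996, and with the library as a block they were 2681 and 2770. The median difference over all genes tested was -0.01. The clusters were drawn from these same counts, so a called gene is one whose difference exceeded the spread between libraries and is not independent evidence that the populations are distinct.

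The cell cycle genes differed little in size. Of the 54 G2/M genes, 17 favored cluster 2 (31.5%, against 14.5% of all genes) and 2 favored cluster 4 (3.7%, against 15.7%). The other 35 were not called (35.2% called against 30.2% of all genes), and the median difference was 0.08. With the library as a block, 23 favored cluster 2 and 7 favored cluster 4. The largest difference was in JPT1, which encodes a microtubule-associated protein, at 7.98 and 7.98 in cluster 2 and 4.5 and 4.56 in cluster 4 (log2 0.80). HMGB2, a chromatin protein of dividing cells, stood at 11.5 ± 0.064 against 8.76 ± 0.022 (log2 0.38). The pair higher in cluster 4 was TOP2A, the topoisomerase that untangles chromosomes, and HJURP, the chaperone of centromeric histone. TOP2A was at 6.23 and 5.22 in cluster 2 and at 8.10 and 6.88 in cluster 4, with replicate 1 above replicate 2 in both. Its difference of -0.40 (edgeR, adjusted p = 0.0272) was -0.39 within replicate 1 and -0.41 within replicate 2. It was no longer called with DESeq2 (adjusted p = 0.129) or without the filter on low counts (adjusted p = 0.0796), and with edgeR it was called with the library as a block (adjusted p = 8.25e-09), after thinning (adjusted p = 0.00298) and with doublets left out (adjusted p = 0.0181).

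MKI67, the proliferation marker, was at 8.06 and 7.84 in cluster 2 and at 7.78 and 7.28 in cluster 4, and CDK1, the mitotic kinase, at 0.700 and 0.699 against 0.759 and 0.725. Neither was called. CCNB1, which encodes cyclin B1, was at 2.84 ± 0.057 against 2.37 ± 0.0085 (log2 0.25), and ASPM, a spindle pole protein, at 3.26 ± 0.13 against 2.75 ± 0.079 (log2 0.23). In cells thinned to 5000 UMIs, a CCNB1 UMI was found in 72.7% and 73.8% of the cells of cluster 2 and in 60.3% and 63.7% of those of cluster 4, and an MKI67 UMI in 92.6% and 91.3% against 93.4% and 92.9%. The counting intervals of the clusters were apart for CCNB1 and overlapped for MKI67. They cover the counting of cells only, and cells of 1 calf are not replicates. As the pair was chosen for like cell cycle levels, these shares are a description.

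The list of 38 late mitosis genes summed to 105.0 ± 1.11 in cluster 2 and 98.0 ± 1.18 in cluster 4, with 9 genes higher in cluster 2 and 1, SGO1, a protector of sister chromatid cohesion, higher in cluster 4. Those higher in cluster 2 made up 23.7% (against 14.5% of all genes) and those higher in cluster 4 made up 2.63% (against 15.7%). Together the called share was 26.3% against 30.2% of all genes, and with the library as a block the counts were 19 and 2. SGO1 was not called with DESeq2 (adjusted p = 0.0713) or after thinning (edgeR, adjusted p = 0.0635). Of 26 genes of G2 and chromosome condensation, 38.5% were called, against 30.2% of all genes. The share was 23.1% in favor of cluster 2 (against 14.5%) and 15.4% in favor of cluster 4 (against 15.7%). With the block, 7 favored cluster 2 and 7 favored cluster 4. Without it, 6 favored cluster 2, with TMPO of the nuclear lamina (log2 0.33) among them, and 4 favored cluster 4. Those 4 were FOXM1, the transcription factor of the G2/M genes (log2 -0.41), TOP2A and the kinetochore genes SPC25 and SPC24. SPC25 and SPC24 were chosen for mention after their values were seen. FOXM1 was not called after thinning (edgeR, adjusted p = 0.075). In the S phase list, 4 of 43 genes were higher in cluster 2 (9.30%, against 14.5% of all genes) and 11 higher in cluster 4 (25.6%, against 15.7%). With the block the counts were 11 and 19. The 4 were POLD3, a DNA polymerase subunit (log2 0.42), MCM6, NASP and RPA2, while the largest in the other direction among the named genes were WDR76 (log2 -0.47), the chromatin remodeler HELLS (log2 -0.42) and the clamp loader subunit RFC2 (log2 -0.40). WDR76 was not called after thinning (edgeR, adjusted p = 0.0722). MCM6, NASP and RPA2 were likewise chosen after their values were seen.

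Several myogenic regulators differed by more than any G2/M gene. The pair was chosen for like cell cycle levels and different MYOD1, so this order is a description. Of 33 tested, 11 favored cluster 2 (33.3%, against 14.5% of all genes) and 3 favored cluster 4 (9.09%, against 15.7%). The other 19 were not called, and the called share was 42.4% against 30.2% of all genes. With the library as a block, 17 favored cluster 2 and 5 favored cluster 4. The list summed to 16 and 15 in cluster 2 and to 9.29 and 9.32 in cluster 4. MYOD1 (ENSBTAG00000002216) was at 7.02 in replicate 1 and 6.42 in replicate 2 of cluster 2 and at 2.70 and 2.72 in cluster 4. Both libraries of cluster 2 lay above both of cluster 4. The difference, for which the pair was chosen, was 1.30, or 2.45-fold, and was 1.37 within replicate 1 and 1.23 within replicate 2.

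MYF5 (ENSBTAG00000026972), the close relative of MYOD1 that also commits cells to the muscle lineage, went the other way. It was at 0.736 and 0.668 in cluster 2 and at 1.12 and 1.05 in cluster 4, without overlap (log2 -0.64, SE 0.065, edgeR, adjusted p = 0.00074). MYOG (ENSBTAG00000006030), the bHLH factor of terminal differentiation, was at 1.16 and 1.01 in cluster 2 and at 0.139 and 0.131 in cluster 4 (log2 2.99, SE 0.086, edgeR, adjusted p = 1.07e-05). It had the largest difference in favor of cluster 2 among the genes named by the rule. Cluster 9, the cluster with the highest PDGFRA level and the lowest MYOD1 level, was taken as the background and held MYOG at 0.324 and 0.197. Without doublets, MYOG was at 0.104 and 0.0965 in cluster 9 and at 0.116 and 0.117 in cluster 4, close to each other.

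PAX7 (ENSBTAG00000014967) and PAX3 (ENSBTAG00000009950), the paired-box factors of quiescent satellite cells and of muscle precursors, were close to absent from the counts of both clusters. PAX7 had 17 and 12 UMIs in cluster 2 and 23 and 16 in cluster 4, which was not called (log2 -0.63, SE 0.36, edgeR, adjusted p = 0.234). PAX3 had 14 and 4 UMIs in cluster 2 and 27 and 23 in cluster 4 (log2 -1.66, SE 0.49, edgeR, adjusted p = 0.0446). This call was lost with DESeq2 (adjusted p = 0.149), without the filter (adjusted p = 0.0869), with doublets left out (adjusted p = 0.0546) and after reassigning cells (adjusted p = 0.0623), and the difference was -2.58 without replicate 1 and -1.12 without replicate 2. At this depth a PAX7 UMI was seen in 0.37% and 0.49% of the thinned cells of cluster 2 and in 0.66% and 0.58% of those of cluster 4, with overlapping counting intervals.

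**Figure D1:**
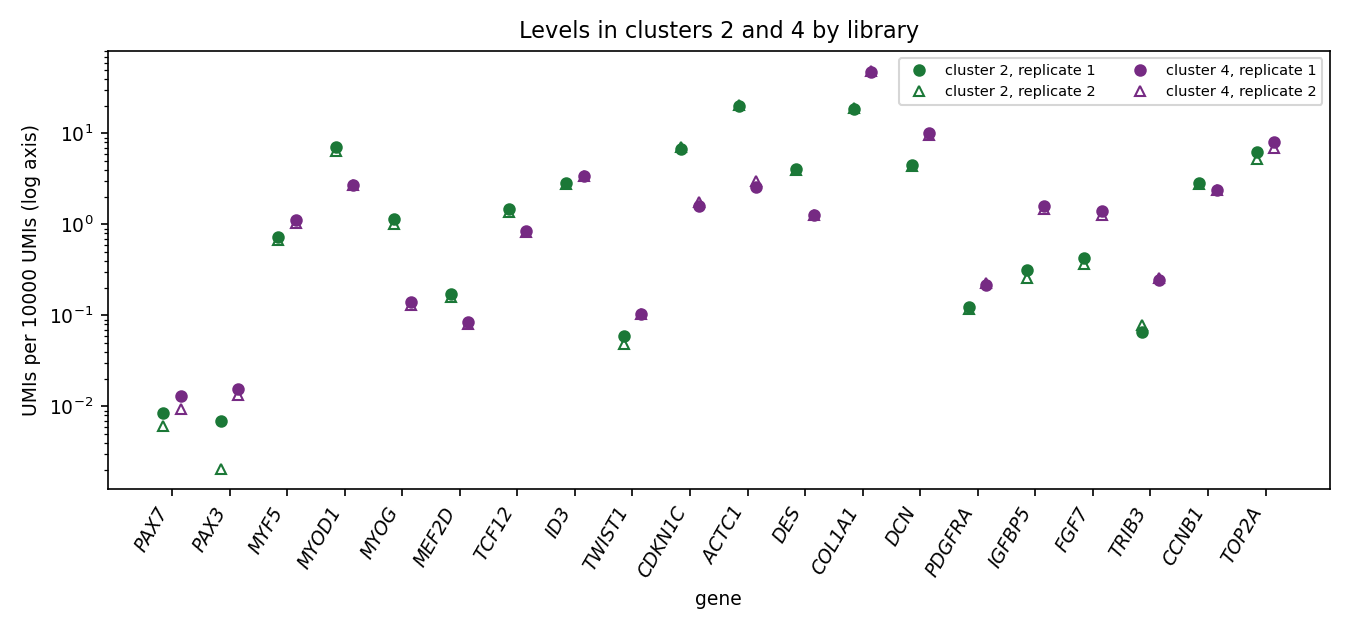
Level of 20 genes in clusters 2 and 4, as UMIs per 10000 UMIs on a log axis, with a filled circle for replicate 1 and an open triangle for replicate 2. MYOD1, MYOG, CDKN1C, ACTC1 and DES lie higher in cluster 2, and COL1A1, DCN, IGFBP5, FGF7 and TRIB3 lie higher in cluster 4.

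Further regulators followed MYOD1. RBM24, an RNA-binding protein of muscle splicing, was at 2.05 and 1.88 in cluster 2 and at 0.717 and 0.692 in cluster 4 (log2 1.47). MEF2D, a MADS-box partner of the myogenic bHLH factors, was at 0.171 and 0.161 against 0.0849 and 0.0805 (log2 0.99). EYA1, a coactivator of homeobox factors in muscle, was higher in cluster 2 by 0.72, VGLL3, a TEAD cofactor, by 0.50 and ZEB1, a zinc finger repressor, by 0.22. After thinning, VGLL3 (adjusted p = 0.0908) and ZEB1 (adjusted p = 0.235) were not called by edgeR, and neither was ZEB1 with DESeq2 (adjusted p = 0.0794). Also called were 4 scarce genes, namely the homeobox gene PITX3 (log2 2.44), SOX8 (log2 2.31), HES6 (log2 2.34) and MEGF10 (log2 1.09), and each of these had a level below 0.1 in both clusters. HES6 rested on 36 UMIs in cluster 2 and 6 in cluster 4, was not called after reassigning cells (edgeR, adjusted p = 0.071) and had no adjusted p with DESeq2. MEGF10 was not called with DESeq2 (adjusted p = 0.0793). The other regulator higher in cluster 4, beside PAX3 and MYF5, was SNAI2, a zinc finger repressor that competes for the DNA sites of MYOD1, at 0.456 and 0.459 against 0.763 and 0.726 (log2 -0.72).

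Of the 11 tested genes that pair with or restrain MYOD1, 2 favored cluster 2 (18.2%, against 14.5% of all genes). In cluster 4, 5 were higher (45.45%, against 15.7%), and the median was -0.30. The median turned to 0.054 after thinning, where TCF3 (adjusted p = 0.0572) and ID4 (adjusted p = 0.0948) were not called by edgeR, and with the library as a block 4 favored cluster 2 and 5 favored cluster 4. The E proteins TCF12 (1.42 ± 0.076 against 0.836 ± 0.013, log2 0.75) and TCF3 (log2 0.37) were the pair higher in cluster 2. ID3, ID2 and ID4, which bind E proteins and keep them from DNA, differed by -0.30, -0.36 and -0.61. TWIST1 (log2 -0.96) and BHLHE40 (log2 -0.92), a pair of bHLH repressors, were lower in cluster 2 as well. ID1, the most abundant of the ID genes, was at 11 and 10.9 against 10.6 and 10.8 and was not called. The list sums of 18.1 ± 0.095 and 18.2 ± 0.077 overlapped.

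The MYOD1 difference was seen both in the share of cells with a UMI and in the UMIs per cell with at least 1. At 5000 UMIs, the latter was 3.81 and 3.56 in cluster 2 and 2.52 and 2.57 in cluster 4. A lower amount per cell also lowers the share with a UMI, so share and amount were not separated. In cells thinned to 5000 UMIs, a MYOD1 UMI was found in 89.4% (95% exact binomial interval 87.4 to 91.2) and 89.5% (87.5 to 91.3) of the cells of cluster 2. In cluster 4 it was found in 53.8% (50.5 to 57.1) and 51.3% (47.9 to 54.7), and in cluster 9 in 15.7% (12.8 to 18.9) and 12.6% (9.8 to 15.8). Before thinning, the median cell of cluster 9 held 23011 UMIs. With doublets left out, the share in cluster 9 was 8.13% and 7.80%. The share in cluster 4 lay between those of clusters 9 and 2. Cluster 9, the background, had the lowest MYOD1 level of all clusters, and clusters 2 and 4 were chosen for different MYOD1. This order thus follows from the choice of clusters and cannot show that cluster 4 held MYOD1 RNA above background. The median cell of cluster 2 held 3 MYOD1 UMIs after thinning and that of cluster 4 held 1. Cells with 6 or more MYOD1 UMIs made up 19.1% and 16.3% of cluster 2, and 4.63% and 4.43% of cluster 4. Unthinned, a MYOD1 UMI was present in 97.95% of cluster 2 and 76.60% of cluster 4 as the mean of the libraries. Doublets made up 10.9% and 13.9% of the cells of cluster 4 with a MYOD1 UMI and 5.01% and 5.76% of those without. With doublets left out, the share with a MYOD1 UMI was 89.36% in cluster 2 and 50.66% in cluster 4, and the log2 difference was 1.36.

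**Figure D2:**
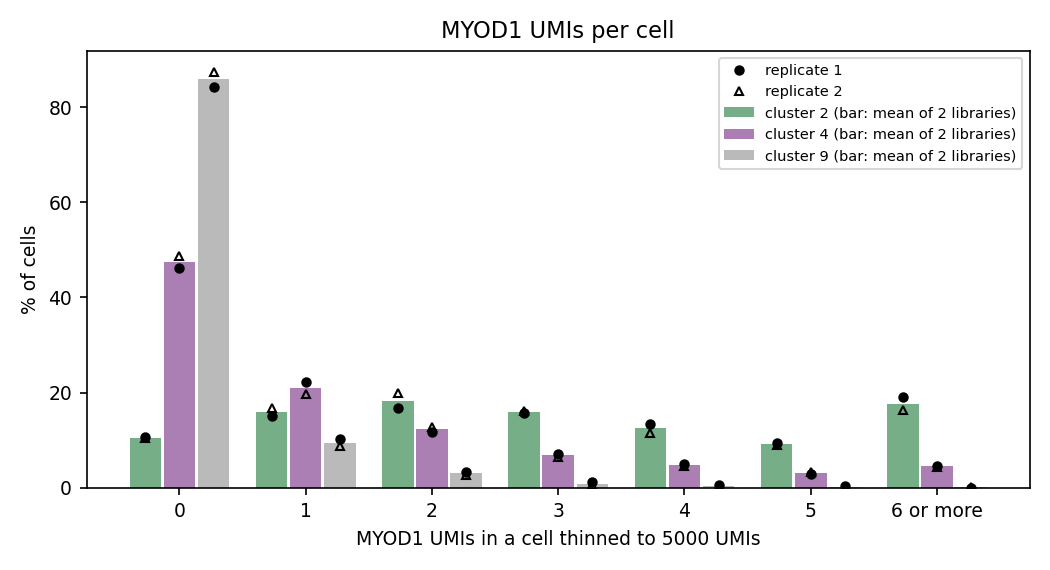
Share of cells (%) by the number of MYOD1 UMIs in a cell thinned to 5000 UMIs, for clusters 2, 4 and 9, with the mean of 2 libraries as bars, replicate 1 as circles and replicate 2 as triangles. Cluster 4 has 46.2% and 48.7% of its cells at 0, while cluster 2 has 10.6% and 10.5% at 0. Counts of 6 or more share the last group, which reaches 17 and 15 UMIs in cluster 2 and 13 and 12 in cluster 4.

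Counted jointly, MYOD1 and MYF5 gave different shares of cells in clusters 2 and 4. The pair of clusters was chosen for different MYOD1, and RNA present in a cell can go unseen after thinning. The joint shares thus depend on the level of each gene. Whether they differ beyond these levels, as separate kinds of cells would, was not tested. In cluster 2, 65.9% of the thinned cells of each library held MYOD1 without MYF5, and in cluster 4 this was 35.6% and 32.2%. Cells with MYF5 without MYOD1 made up 3.96% and 3.23% of cluster 2 and 17.5% and 19% of cluster 4. Cells with neither made up 6.63% and 7.23% of cluster 2 and 28.7% and 29.6% of cluster 4, and cells with both 23.5% and 23.7% against 18.2% and 19.1%. In cluster 4 a MYF5 UMI was seen in 35.7% and 38.2% of cells against 4.10% and 3.24% in cluster 9. For MYOG, the shares were 21.2% and 20.3% in cluster 2, 6.50% and 5.83% in cluster 4 and 7.68% and 7.89% in cluster 9. With doublets left out they were 6.36% and 5.31% in cluster 4 and 4.96% and 6.42% in cluster 9. The counting intervals overlapped, so the shares of clusters 4 and 9 were not told apart, and overlap cannot show that they are equal. Without doublets, the MYF5 share in cluster 9 was 2.58% and 1.61%.

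The G2/M level was also compared between cells with and without MYOD1 or MYOG RNA. Within cluster 2 at the thinned depth, the G2/M list summed to 155.3 and 150.04 in cells with a MYOD1 UMI and to 151.9 and 143.9 in cells without. Within cluster 4 it summed to 147.5 and 140.8 with and to 142.6 and 138.2 without. For MYOG in cluster 2, the sums were 152.8 and 152.4 in the 230 and 208 cells with a UMI and 155.5 and 148.6 in the others. Cells with a MYOD1 UMI were above those without in both libraries of both clusters, and for MYOG the direction differed between libraries.

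To compare MYOD1 at a like position in the cycle, the cells of both clusters were ordered by the share of late mitosis list UMIs among late mitosis and G2 condensation UMIs and cut in each library into 3 bins of equal cell number. Cluster 4 had more of its cells in bin 1, the earliest, with 42.0% and 41.2% against 26.2% and 27.0% of cluster 2, and fewer in bin 2, with 24.9% and 24.9% against 40.5% and 40.2%. Bin 3 held 33.3% and 32.8% of cluster 2 and 33.1% and 33.9% of cluster 4. The S phase list was highest in bin 1 of both clusters, at 42.9 and 40.3 in cluster 2 and 43.1 and 42.4 in cluster 4. The G2/M list in bin 1 was at 142.5 and 136.4 in cluster 2 and at 109.5 and 104.8 in cluster 4. In bin 3 it was at 163.7 and 161.8 against 175.5 and 169.4, and in bin 2 the libraries overlapped. The median index in bin 1 was 0.558 and 0.5625 against 0.525 and 0.533. The bins thus matched the clusters in position only in part.

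MYOD1 was higher in cluster 2 in every bin. In bin 1 its level was 8.02 and 6.79 in cluster 2 and 2.90 and 3.00 in cluster 4 (log2 1.30). In bin 2 it was 6.84 and 6.48 against 2.61 and 2.64 (log2 1.35), and in bin 3 it was 6.39 and 6.01 against 2.52 and 2.43 (log2 1.32). The difference was of like size in each bin, and as the pair was chosen by MYOD1 this is a description. Of all genes, 23.4% were called in bin 1 (11.1% in favor of cluster 2 and 12.3% of cluster 4), 19.3% in bin 2 (9.63% and 9.72%) and 17.6% in bin 3 (8.8% and 8.75%). MYF5 was lower in cluster 2 in each bin, with log2 differences of -0.70, -0.65 and -0.43, and MYOG was higher by 3.14, 2.97 and 2.66. DES, the muscle intermediate filament gene, was higher by 1.59, 1.80 and 1.68.

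**Figure D3:**
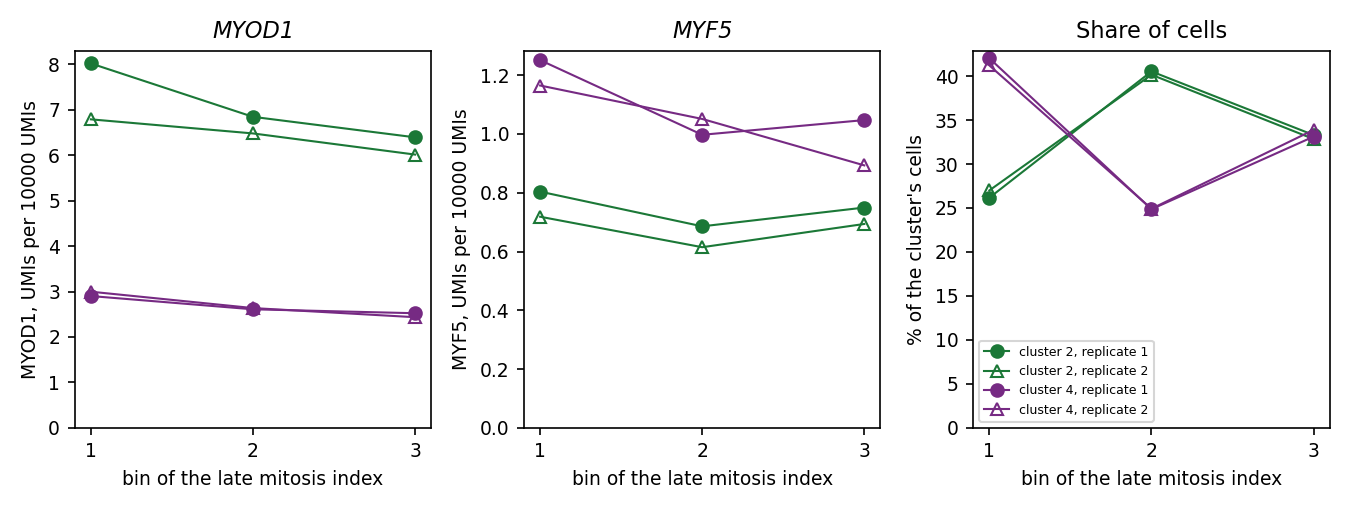
MYOD1 and MYF5 levels (UMIs per 10000 UMIs) and the share of each cluster's cells (%) in 3 bins of the late mitosis index, from the earliest (1) to the latest (3), with replicate 1 as circles, replicate 2 as triangles and lines joining the bins of a library. MYOD1 stays between 6.01 and 8.02 in cluster 2 and between 2.43 and 3.00 in cluster 4.

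Genes of muscle structure and fusion gave the most genes higher in cluster 2 of all lists. Of 51 tested genes of this list, 37 favored cluster 2 (72.55%, against 14.5% of all genes) and 4 favored cluster 4 (7.84%, against 15.7%). The other 10 were not called. The median was 1.25, and 34 of the 37 were over 1.5-fold. The list summed to 84.5 and 85.1 in cluster 2 and to 49.5 and 51.1 in cluster 4. ACTC1, the cardiac actin that developing skeletal muscle also uses, was at 20.2 and 20.6 in cluster 2 and at 2.60 and 3.02 in cluster 4 (log2 2.85, SE 0.069, edgeR, adjusted p = 8.74e-06). In cluster 9 ACTC1 was at 2.34, and in cluster 12, the most differentiated by MYOG, at 149.8. Without doublets it was at 1.10 and 1.16 in cluster 9 and at 2.36 and 2.63 in cluster 4.

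Members of the list named by the rule were the fetal acetylcholine receptor subunit CHRNG (0.793 ± 0.038 against 0.159 ± 0.0013, log2 2.31), the troponins TNNC2 (log2 2.12) and TNNC1 (log2 2.00), the giant thin filament protein NEB (log2 2.09), the embryonic myosin heavy chain MYH3 (log2 2.10) and KLHL41 of the sarcomere (log2 1.75). Outside the list, the myosin light chain MYLPF (3.02 ± 0.12 against 0.440 ± 0.025, log2 2.77) and the dystrophin complex member SGCA (log2 1.79) were higher as well. DES was at 4.04 and 3.99 in cluster 2 and at 1.27 and 1.27 in cluster 4 (log2 1.65). The 15 genes with the largest differences in favor of cluster 2 also held FNDC5, the irisin precursor (log2 2.05), FITM1, a lipid droplet protein of muscle (log2 1.81), the Notch ligand DLL1 (log2 1.85) and the tubulin TUBA4A (log2 1.61). The 4 list members higher in cluster 4 were the cell adhesion gene CDH2 (log2 -1.10), the brain creatine kinase CKB (log2 -1.06), the tropomyosin TPM2 (log2 -0.41) and the receptor NEO1 (log2 -0.33), all chosen for mention after their values were seen.

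Among 27 cyclins, CDK inhibitors and related genes, 4 were higher in cluster 2 (14.8%, against 14.5% of all genes) and 7 higher in cluster 4 (25.9%, against 15.7%). A library block gave 9 and 9, and DESeq2 gave 4 and 2. CDKN1C, which encodes the CDK inhibitor p57, was at 6.79 and 7.03 in cluster 2 and at 1.59 and 1.77 in cluster 4 (log2 2.03, SE 0.055, edgeR, adjusted p = 9.39e-06). Over the clusters, its level was highest in cluster 12 at 37.4, then 18.9 in cluster 3, and cluster 2, with the highest G2/M level, stood at 6.91. At the thinned depth, the cells of cluster 2 with a CDKN1C UMI held the G2/M list at 157.1 and 152.5, against 150.3 and 142.3 in the cells without. In cluster 4 the list was at 155.5 and 148.0 in cells with a CDKN1C UMI and at 140.6 and 135.9 in cells without. Doublets made up 11.3% and 17.2% of the cells of cluster 4 with a CDKN1C UMI and 6.74% and 6.72% of those without. The other genes higher in cluster 2 were CCND3, the cyclin D of muscle differentiation (0.803 ± 0.028 against 0.472 ± 0.011, log2 0.75), E2F4 (log2 0.45) and RB1 (log2 0.40), of which RB1 was chosen after its values were seen. CDKN2D, which encodes the inhibitor p19 (log2 -0.67), and CDKN1A, which encodes p21 (0.945 ± 0.011 against 1.18 ± 0.039, log2 -0.33), were higher in cluster 4. The inhibitors thus differed in opposite directions.

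Collagens were higher in cluster 4. Of 18 tested, 13 were higher in cluster 4 (72.2%, against 15.7% of all genes) and 5 were not called, with a median of -0.71. The list summed to 90.1 and 91.4 in cluster 2 and to 167.3 and 173.4 in cluster 4. COL1A1, a chain of type I collagen, was at 18.8 and 19 in cluster 2 and at 47.9 and 48.9 in cluster 4 (log2 -1.37, SE 0.033, edgeR, adjusted p = 8.74e-06). COL3A1 was at 25.5 ± 0.39 against 46.3 ± 0.21 (log2 -0.88), the fibril-associated COL14A1 at 0.127 ± 0.0056 against 0.302 ± 0.026 (log2 -1.27) and COL5A2 at 0.416 ± 0.024 against 0.730 ± 0.058 (log2 -0.83).

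Other matrix genes went with the collagens. Of 38 tested, 26 were higher in cluster 4 (68.4%, against 15.7% of all genes) and 2 higher in cluster 2 (5.26%, against 14.5%). With the library as a block the counts were 28 and 4. The median was -0.71, and the sums were 70.6 ± 0.23 in cluster 2 and 101.8 ± 0.86 in cluster 4. Clusters 1, 5 and 8 stood at 102.6, 101.9 and 140.6, and clusters 3 and 6 at 77.2 and 75.2. The collagen crosslinkers LOX (0.904 ± 0.014 against 2.21 ± 0.15, log2 -1.30) and LOXL2 (0.444 ± 0.0045 against 1.2 ± 0.054, log2 -1.45) and the small leucine-rich proteoglycans FMOD (log2 -1.37), PRELP (log2 -1.36), DCN (log2 -1.16) and LUM (log2 -1.11) were higher in cluster 4. THBS1, a matricellular glycoprotein (log2 0.78), and SPARCL1 (log2 0.55) were the pair higher in cluster 2, named after their values were seen. LARP6, which binds collagen messenger RNAs, was at 0.189 ± 0.0056 against 0.542 ± 0.039 (log2 -1.54). The protease PRSS23 (log2 -2.32), SERPINF1 (log2 -1.91), the gap junction gene GJA1 (log2 -1.59), the fibronectin receptor ITGA5 (log2 -1.46), the calcineurin regulator RCAN2 (log2 -1.90), PTN (log2 -1.45) and PERP (log2 -1.41) were also among the 15 largest in this direction.

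Most tested markers of fibro-adipogenic cells, which neighbor satellite cells in muscle and can turn into adipocytes or fibroblasts, moved in the same direction. Of 19 found in the feature list, 13 were tested and 9 were higher in cluster 4 (69.2%, against 15.7% of all genes). The other 4 were not called, and the median was -0.89. DESeq2 gave 6 higher in cluster 4, and thinning gave 6 of 10. With the library as a block, 10 were higher in cluster 4 and 1 in cluster 2. FABP4 had 265 UMIs in cluster 2 and 172 in cluster 4, and ZNF423 had 138 and 152. Both were named after their values were seen. The list summed to 7.34 and 7.11 in cluster 2, 15.7 and 15.1 in cluster 4 and 19.7 and 19 in cluster 9. It was at 22.6 ± 0.88 in cluster 8 and 15.9 ± 0.35 in cluster 5, so a high sum was not particular to cluster 9. Members differed between clusters 4 and 9. INHBA had 116 and 9525 UMIs and CXCL12 had 62 and 2550, while THY1 had 3022 and 1092. INHBA and CXCL12 were chosen for mention after their values were seen. Most of this sum was DCN (4.52 and 4.34 against 9.99 and 9.56) and LUM (2.01 and 1.90 against 4.22 and 4.09), which are also members of the matrix list. PDGFRA, the defining receptor, was at 0.124 and 0.118 in cluster 2, 0.215 and 0.229 in cluster 4 (log2 -0.89) and 1.58 in cluster 9, and a PDGFRA UMI was seen in 9.70% and 11.2% of the thinned cells of cluster 4 against 50.5% and 50% of those of cluster 9. THY1 was at 0.476 ± 0.044 against 0.871 ± 0.014 (log2 -0.89). ADIPOQ, LEP and PI16 were at 0 in both clusters. COL1A1 was at 24.6 and COL3A1 at 17.7 in cluster 9. Counted without doublets, 13 of 18 collagens were higher in cluster 4. The part of these markers in the matrix difference was not tested.

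Of 8 tested smooth muscle and pericyte markers, 6 were higher in cluster 4 (75%, against 15.7% of all genes) and 2 were not called. The list summed to 8.26 and 8.03 in cluster 2 and 10.5 and 10.7 in cluster 4. Most of it was the smooth muscle actin ACTA2 (6.57 ± 0.25 against 8.46 ± 0.054, log2 -0.38). The contractile regulator CNN1 (log2 -1.06), the pericyte proteoglycan CSPG4 (log2 -1.29) and NOTCH3 (log2 -0.79) were higher in cluster 4, while RGS5, the defining pericyte gene, had 0 UMIs in both clusters and MYH11 had 19 and 12. SMTN had 2940 UMIs in cluster 2 and 2348 in cluster 4, and MCAM had 23 and 7. Both were named after their values were seen. With the library as a block, 7 markers were higher in cluster 4 and 1 in cluster 2. In the list of 28 actin cytoskeleton genes, 3 were higher in cluster 2 (10.7%, against 14.5% of all genes) and 11 higher in cluster 4 (39.3%, against 15.7%). With the library as a block the counts were 6 and 18. VIM, the intermediate filament of mesenchymal cells, was at 57.0 ± 0.53 against 91.8 ± 1.79 (log2 -0.70), ACTN1 differed by -0.84 and TAGLN2 by -0.54. FLNC, the muscle filamin (log2 0.64), PXN and PFN1 were the 3 in the other direction, the last pair named after their values were seen.

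Signaling genes were mixed by pathway. In the IGF axis, which drives myoblast growth, 2 of 10 genes favored cluster 2 (20%, against 14.5% of all genes). In cluster 4, 4 were higher (40%, against 15.7%). IGF2 was at 10.7 and 14 in cluster 2 and at 4.64 and 6.51 in cluster 4 (log2 1.14, SE 0.17, edgeR, adjusted p = 0.00367), with replicate 2 above replicate 1 in both. IGFBP3 was at 1.81 ± 0.011 against 0.796 ± 0.041 (log2 1.17). In the other direction, IGFBP5 was at 0.317 and 0.257 in cluster 2 and at 1.59 and 1.47 in cluster 4 (log2 -2.43, SE 0.10, edgeR, adjusted p = 2.22e-05), the largest difference in favor of cluster 4 among the genes named by the rule. IGFBP4 (log2 -1.07), IGFBP6 (log2 -0.95) and IGFBP2 (log2 -0.94) went with it, the last pair named after their values were seen. These binding proteins hold or release IGF ligands outside the cell.

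Of 31 growth factor receptors and surface genes, 4 favored cluster 2 (12.9%, against 14.5% of all genes) and 11 favored cluster 4 (35.5%, against 15.7%). After thinning the counts were 3 and 5 of 25. FGFR4, the FGF receptor of myoblasts, was at 0.882 ± 0.014 against 0.566 ± 0.0097 (log2 0.63), and CD81, SDC4 and CD44 were the other 3, named after their values were seen. GPC1, a proteoglycan that binds FGF, was higher in cluster 4 (log2 -0.54), and so was the ligand FGF7, at 0.394 ± 0.043 against 1.35 ± 0.097 (log2 -1.79). Notch signaling is known to hold satellite cells in the stem state. Of 20 genes of its list, 5 favored cluster 2 (25%, against 14.5% of all genes) and 6 favored cluster 4 (30%, against 15.7%). A library block gave 9 and 7, and DESeq2 gave 2 and 3. The ligand DLL1 was at 0.542 and 0.526 in cluster 2 and at 0.153 and 0.139 in cluster 4, and the effector RBPJ was higher in cluster 2 by 0.52. The receptor NOTCH3 (log2 -0.79) and the target HEY1 (0.199 ± 0.021 against 0.286 ± 0.023, log2 -0.54) were higher in cluster 4. HEY1 was not called after thinning (edgeR, adjusted p = 0.0868).

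Of 35 TGF-beta and BMP genes, 17 favored cluster 4 (48.6%, against 15.7% of all genes). In cluster 2, 2 were higher (5.71%, against 14.5%), TGFBR2 and SKIL. The median was -0.26. For clusters 4 and 2, a library block gave 19 and 5 and DESeq2 gave 11 and 1. The target TGFBI was at 0.982 ± 0.036 against 1.64 ± 0.047 (log2 -0.76), the latent TGF-beta binding protein LTBP2 differed by -0.79 and FST, the inhibitor of myostatin and activin, was at 0.145 and 0.232 in cluster 2 and at 0.355 and 0.473 in cluster 4 (log2 -1.15). Of 20 WNT genes, 9 favored cluster 4 (45%, against 15.7% of all genes) and 3 favored cluster 2 (15%, against 14.5%). Their median was -0.72. The ligand WNT5B (0.149 ± 0.016 against 0.529 ± 0.0047, log2 -1.85), the secreted inhibitor SFRP1 (log2 -1.34) and the receptor FZD1 (log2 -1.10) were higher in cluster 4, and the receptor FZD2 (0.508 ± 0.018 against 0.222 ± 0.017, log2 1.18), SFRP4 and TCF7L1 were higher in cluster 2. Of 23 Hippo pathway genes and YAP targets, 8 were higher in cluster 4 (34.8%, against 15.7% of all genes), with CRIM1 (log2 -0.48), TGFB2 (log2 -0.32) and AXL (log2 -0.31) among them. In cluster 2, 2 were higher (8.70%, against 14.5%), TEAD2 (log2 0.65) and TEAD1. The block gave 13 higher in cluster 4 and 2 in cluster 2. TGFBR2, SKIL, SFRP4, TCF7L1 and TEAD1 were named after their values were seen.

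Among metabolic lists, cholesterol synthesis was higher in cluster 2. Of 18 genes, 12 were higher in cluster 2 (66.7%, against 14.5% of all genes) and 6 were not called. The median was 0.43, and the sums were 14.6 ± 0.33 in cluster 2 and 10.3 ± 0.074 in cluster 4. HMGCS1, which makes HMG-CoA, was at 3.64 and 3.39 in cluster 2 and at 2.21 and 2.05 in cluster 4 (log2 0.71), and IDI1 (log2 0.67), MVD (log2 0.66) and FDPS (log2 0.57), enzymes of the isoprenoid steps that follow, were higher as well. Of 30 nuclear genes of the respiratory chain, 18 were higher in cluster 2 (60%, against 14.5% of all genes) and 12 were not called. The median was small at 0.17, and the sums were 125.4 ± 0.40 in cluster 2 and 109.2 ± 1.40 in cluster 4. COX8A of complex IV was at 3.65 ± 0.041 against 2.50 ± 0.083 (log2 0.53) and UQCRB of complex III at 4.75 ± 0.22 against 3.55 ± 0.18 (log2 0.41).

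Glycolysis and ribosomes differed little in sum. Of 19 glycolysis genes, 2 were higher in cluster 4 (10.5%, against 15.7% of all genes). These were PFKL (log2 -0.27) and the lactate transporter SLC16A3, the latter named after its values were seen. The sums were 132.5 ± 1.64 in cluster 2 and 135.3 ± 0.73 in cluster 4. With the library as a block, 4 were higher in cluster 4 and 2 in cluster 2, and PFKL was not called after thinning (edgeR, adjusted p = 0.118). Of 78 ribosomal protein genes, 74 were not called, RPL7L1 (log2 0.36) and RPL26L1 (log2 0.13) were higher in cluster 2, RPS27L (log2 -0.22) and 1 of the genes named RPL10 (log2 -0.11) were higher in cluster 4, and the sums were 2287 ± 5.76 and 2270 ± 6.75. With the library as a block, 30 were called higher in cluster 2 and 23 higher in cluster 4, with a median of 0.01. RPL26L1 was not called after thinning, with doublets left out or with DESeq2, and RPL10 was not called after thinning. Copies of ribosomal protein genes can share reads, so single members are uncertain. In the p53 target list, 6 of 14 genes were higher in cluster 4 (42.9%, against 15.7% of all genes). Among them was GADD45A, a damage response gene, at 1.41 ± 0.0014 against 2.37 ± 0.013 (log2 -0.77). In the immediate early list, 3 of 19 were higher in cluster 2 (15.8%, against 14.5% of all genes), namely FOS, EGR1 and BTG1, named after their values were seen. In cluster 4, 8 were higher (42.1%, against 15.7%), with KLF6 (log2 -0.50), DUSP1 (log2 -0.65) and IER3 (log2 -0.58) among them. With the library as a block the counts were 5 and 9.

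**Figure D4:**
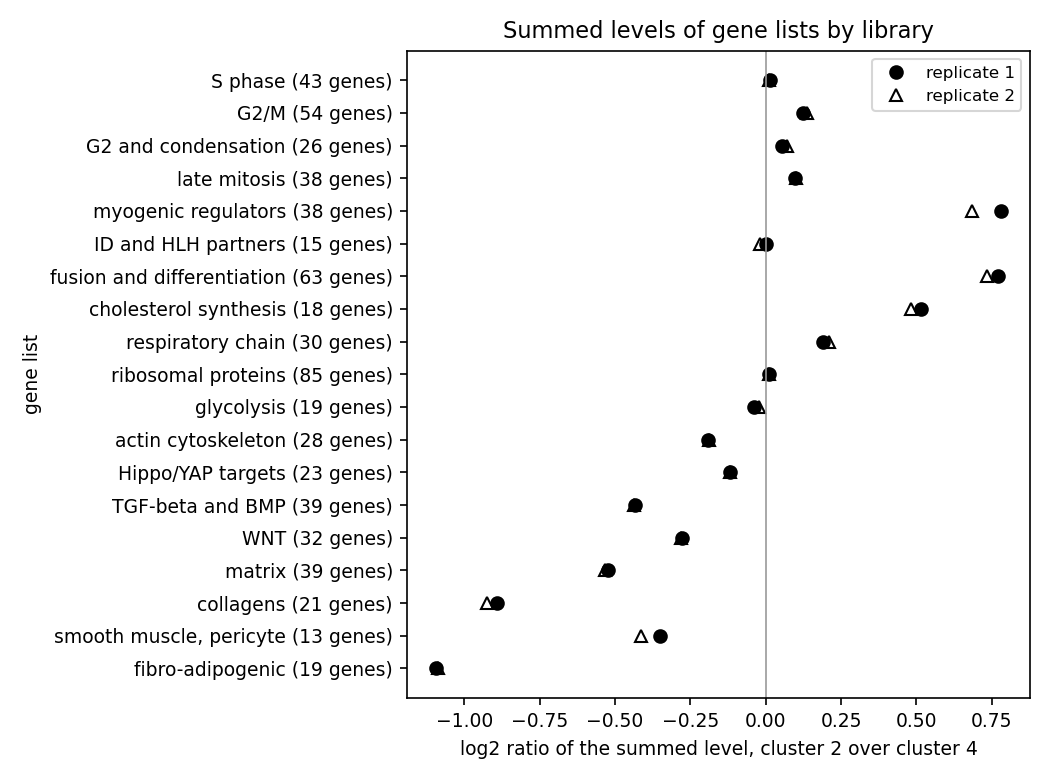
Log2 ratio of the summed level of a gene list in cluster 2 over cluster 4, by library (filled circle, replicate 1; open triangle, replicate 2), with the number of genes found in each list. Myogenic regulators, fusion and differentiation and cholesterol synthesis lie to the right of 0 in both libraries, collagens and fibro-adipogenic markers lie to the left, and S phase, ribosomal proteins and glycolysis lie near 0.

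In the list of 26 heat shock, chaperone and stress genes, 8 were higher in cluster 2 (30.8%, against 14.5% of all genes). In cluster 4, 9 were higher (34.6%, against 15.7%). The 8 were chaperones of the cytosol and mitochondria, and the 9 held the chaperones HSPA5, HSP90B1 and CALR and disulfide isomerases of the endoplasmic reticulum beside stress factors. The cytosolic chaperones HSPH1 (0.937 ± 0.0013 against 0.546 ± 0.0053, log2 0.77) and HSPB8 (3.15 ± 0.0021 against 1.89 ± 0.018, log2 0.72) were higher in cluster 2. TRIB3, a pseudokinase switched on by stress, was at 0.0654 and 0.0789 in cluster 2 and at 0.246 and 0.259 in cluster 4 (log2 -1.82), and DDIT3, a stress transcription factor, at 0.400 and 0.384 against 0.959 and 0.972 (log2 -1.31). The amino acid stress factor ATF5 was at 0.562 and 0.555 against 1.49 and 1.56 (log2 -1.46, SE 0.045, edgeR, adjusted p = 1.31e-05) and ALDH1L2, a mitochondrial folate enzyme, at 0.406 and 0.355 against 1.09 and 1.06 (log2 -1.52).

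After these values were seen, 33 genes linked to ATF4, the transcription factor that raises amino acid synthesis, uptake and tRNA charging, were listed. Of 32 tested, 30 were higher in cluster 4 (93.75%, against 15.7% of all genes) and 2 were not called. The median was -1.03, and the sums were 28.2 ± 0.076 in cluster 2 and 50.6 ± 0.55 in cluster 4. As the list was prompted by the data, its count is a description, and 5 of its members stood in other lists. Enzymes of serine synthesis were PHGDH (3.43 and 3.43 against 6.80 and 7.14, log2 -1.04), PSAT1 (1.02 and 1.08 against 2.53 and 2.71, log2 -1.33) and PSPH (log2 -1.18). The amino acid transporter subunits SLC3A2 and SLC7A5 differed by -0.97 each, the tRNA synthetases WARS, GARS and AARS by -1.19, -1.02 and -0.83, and ATF4 itself by -0.67. ASNS, the asparagine synthetase, differed by -0.43. With doublets left out 30 members were higher in cluster 4, and at the thinned depth 28 of 30.

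To see where these differences were also found outside G2/M, cluster 6 was compared with cluster 11, the pair with the highest S phase levels (44.3 ± 1.43 and 45.7 ± 1.35). Cluster 6 held MYOD1 at 5.75 and cluster 11 at 1.35. Of 11041 genes tested, 1818 (16.5%) were called, 966 (8.75%) higher in cluster 6 and 852 (7.72%) higher in cluster 11. Doublets made up 15.3% of cluster 6 and 3.91% of cluster 11, and their part in this contrast was not tested beyond leaving them out, which gave 895 genes higher in cluster 6 and 874 higher in cluster 11.

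The counts below stand beside 8.75% of all genes called higher in cluster 6 and 7.72% called higher in cluster 11. Of 398 genes higher in cluster 2 by over 1.5-fold and tested in both contrasts, 269 were called higher in cluster 6 and the others were not called. Of 690 genes higher in cluster 4 by over 1.5-fold, 326 were called higher in cluster 11 and 12 higher in cluster 6. Of the muscle genes, the contrast of clusters 6 and 11 had 31 of 47 list members higher in cluster 6, with a median of 1.62. Of the ATF4-linked genes it had 3 of 31 higher in cluster 6 and 1 higher in cluster 11, with a median of 0.06. These counts lay near or below the shares of all genes. Of the collagens it had 10 of 18 higher in cluster 11 and 3 higher in cluster 6. Of 78 ribosomal protein genes, 51 were higher in cluster 6 and 0 higher in cluster 11.

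A test of the difference between both contrasts over all 4 clusters called 1088 of 11720 genes (9.28%), 458 (3.91%) with a higher and 630 (5.38%) with a lower value for cluster 2 minus cluster 4. MYOD1 differed by 2.15 between clusters 6 and 11, beside the 1.30 for which clusters 2 and 4 were chosen. For COL1A1 the values were -1.37 and -0.15 (difference -1.21, edgeR, adjusted p = 3.1e-06), and -1.42 and -0.32 with doublets left out. For MYOG they were 2.99 and 2.78, which did not pass the test of the difference (0.23, edgeR, adjusted p = 0.63). Once doublets were removed they were 3.12 and 2.11, and the difference of 1.02 did not pass it either (edgeR, adjusted p = 0.18), so the size of the MYOG value for clusters 6 and 11 depended on the doublets. ATF5, at -1.46 and 0.26, differed by -1.70 (edgeR, adjusted p = 5.4e-06), and by -1.53 with doublets left out, where the value for clusters 6 and 11 was 0.05 and not called. Of the 32 ATF4-linked genes, 24 were called for a lower value in the G2/M contrast and the others were not called. The list was prompted by the values of clusters 2 and 4, which this test uses again, so the count is a description.

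**Figure D5:**
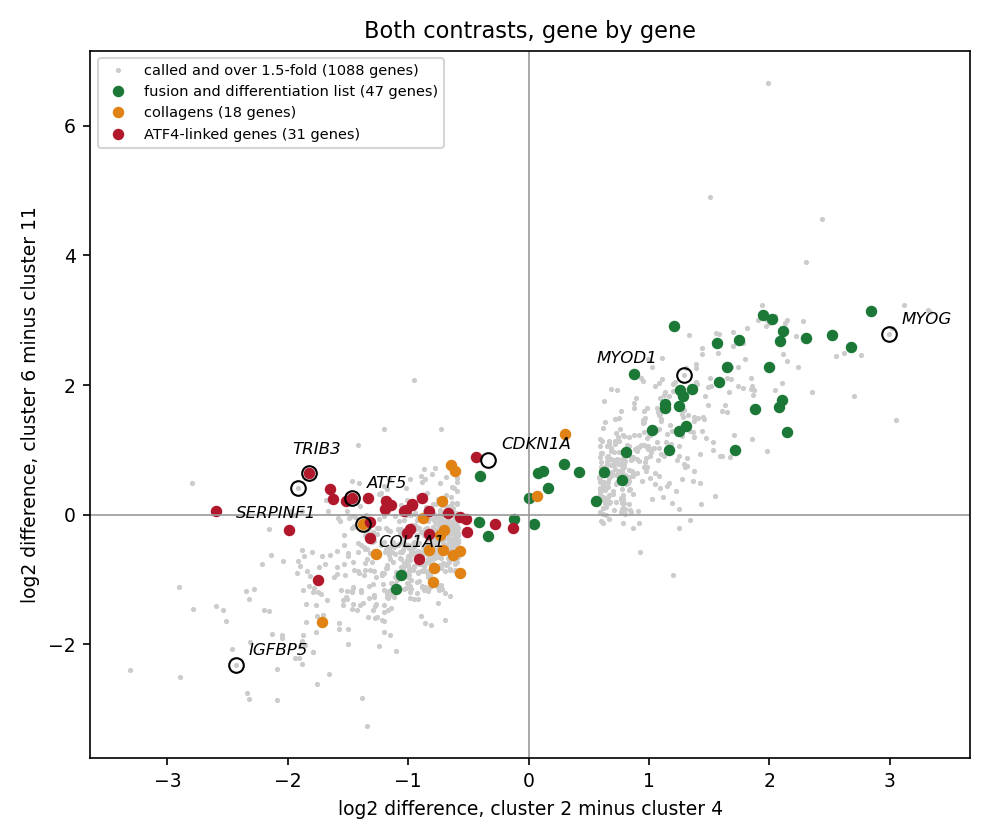
Log2 difference of cluster 2 minus cluster 4 (x axis) and of cluster 6 minus cluster 11 (y axis), where small dots are the 1088 genes called and over 1.5-fold in the first contrast with a value in the second, and colored dots are all tested members of 3 lists. Muscle genes lie along a rising band to the upper right, and ATF4-linked genes lie to the left of 0 and near 0 on the y axis.

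Across all 15 clusters, the MYOD1 level of cluster 2 (6.72 ± 0.43) was second to that of cluster 13 (6.75) and was followed by cluster 3 (6.35) and cluster 6 (5.75), while cluster 4 (2.71 ± 0.0084) stood ninth, next to cluster 14 (2.70) and cluster 7 (2.46). The lowest was cluster 9 at 0.571. Clusters 13, 14 and 7 hold shallow cells, with medians of 1631, 2513.5 and 1389 UMIs. The medians were 17481 and 18770 UMIs in clusters 2 and 4. The part of depth in this order was not tested. Clusters 13 and 2, and clusters 4 and 14, did not differ beyond their spread between libraries. Among 4611 genes at 0.5 or more in any cluster, those with levels most like MYOD1 over the 15 clusters, by Pearson's r of log2 levels, were ENSBTAG00000027629 (r = 0.930), IGF2 (r = 0.922), NNAT (r = 0.916), SMARCD3, a chromatin remodeling subunit of muscle genes (r = 0.908), and ENSBTAG00000052600 (r = 0.904). The 15 points share 2 libraries and cells of 1 calf, and the shallow clusters are among them. Between clusters 2 and 4 these genes differed by 1.39, 1.14, 1.08, 0.77 and 1.07 in that order. Clusters 2 and 4 are among the 15 points and were chosen for different MYOD1, so the direction of these values follows from the pick.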

How the data were processed

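The deposited matrix holds whole UMI counts per gene and cell. Per the study's methods, the authors aligned reads to ARS-UCD1.2, counted UMIs with Cell Ranger 3.0.2 and combined the 2 libraries after thinning them to equal mapped reads. The deposited table of cluster averages holds a score per gene and cluster, which the authors made as UMI averages scaled by cell depth. Its log2 fold changes and p-values are the authors' own comparisons and were not used.

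The table does not list cells. Each average times a cluster's UMI total over the common total of 14889 is a whole UMI sum, and 19096 cells were assigned over 30 rounds until 0 of 252240 sums over 16816 genes differed. Cells of each library were told apart by barcode suffix, and UMIs were summed per library and cluster. The totals ran from 17137564 to 20025125 UMIs in clusters 2 and 4.

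Sums were tested with edgeR 4.0.16 (quasi-likelihood, TMM, filterByExpr, Benjamini-Hochberg) in R 4.3.3, called at an adjusted p under 0.05, with DESeq2 1.42.0 as an alternative. The self-test ran on simulated counts. Both libraries came from the same cells of 1 calf, so p-values measure technical spread only. Same-numbered sums come from the same library and are paired: deviations of clusters 2 and 4 between libraries correlated at 0.517 over 10144 genes with at least 20 UMIs. The fit without this block was kept as the main one, with 1679 and 1818 calls against 2681 and 2770 with the block.

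For shares, each cell was thinned to 5000 UMIs. Exact binomial intervals at 95% cover counting error only. Doublets were scored with Scrublet in scanpy 1.11.5. Its automatic threshold called 0 cells of replicate 1, so after this was seen both libraries took that of replicate 2, 0.272, which called 1153 cells (6.04%).

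Named genes were all called regulators, with PAX3, PAX7, MYF5, MYOD1 and MYOG in any case, the 15 largest differences in each direction with a symbol, the same sign in both libraries and a level of at least 0.5, up to 4 called members of each other list at a level of at least 0.2, and the 5 genes most like MYOD1, compared on log2 levels with a pseudocount of 0.01. Clusters, gene lists and tests were chosen with earlier results of these data known. Mitochondrially encoded genes were not analysed here, and a few named genes are not reported here.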

Additional observations from a re-analysis of the deposited data

Results flagged for a closer look

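The difference between clusters 2 and 4 and that between clusters 6 and 11 were themselves compared, gene by gene, with edgeR's quasi-likelihood test. Of 130 named genes, 64 had a difference between the contrasts at an adjusted p under 0.05, against 9.28% of all genes tested. The named genes were chosen for their size in the first contrast, so this share is a description. Each value below is the log2 difference of cluster 2 minus cluster 4 less that of cluster 6 minus cluster 11. No explanation of these differences was tested, and both clusters of each contrast come from the same 2 libraries.

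In 7 genes both contrasts were called with opposite signs, which were TRIB3 (-2.45), SERPINF1 (-2.30), ATF5 (-1.70), CDKN1A (-1.16), FOXM1 (-1.08), HJURP (-0.79) and RPL10 (-0.26). Doublets were kept here, and they were more common in cluster 6 than in cluster 11. With doublets left out, ATF5 was no longer called between clusters 6 and 11 (log2 0.05, edgeR, adjusted p = 0.665). The other genes are not given without doublets. For SERPINF1 the contrasts were -1.91 and 0.40, for TRIB3 -1.82 and 0.64, and for CDKN1A, which encodes the CDK inhibitor p21, -0.33 and 0.85. FOXM1, the G2/M transcription factor, was higher in cluster 4 than in cluster 2 (-0.41) and higher in cluster 6 than in cluster 11 (0.69).

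Among muscle genes, regulators and surface genes that were higher in cluster 2, the difference was smaller in G2/M for FGFR4 (-1.12), FITM1 (-1.06), CDKN1C (-0.98), KLHL41 (-0.93), SGCA (-0.85), MYOD1 (-0.84), TNNC2 (-0.70), IGFBP3 (-0.64), DES (-0.61), NEB (-0.58) and HSPB8 (-0.35), where clusters 2 and 4 had been chosen for their MYOD1 values. Among matrix genes and their crosslinkers, values were lower in the G2/M contrast for LOXL2 (-1.27), COL1A1 (-1.21), LARP6 (-1.06), LOX (-0.86), FMOD (-0.85), COL3A1 (-0.81), COL14A1 (-0.65), PRELP (-0.60), DCN (-0.57), LUM (-0.48) and TGFBI (-0.36). The same held among secreted and signaling genes for RCAN2 (-1.10), SFRP1 (-0.79), PTN (-0.59), NOTCH3 (-0.58), CRIM1 (-0.50), WNT5B (-0.46), GPC1 (-0.43) and IGFBP4 (-0.38). Among stress, cycle and transcription genes it held for ALDH1L2 (-1.72), DDIT3 (-1.18), CDKN2D (-0.75), JUND (-0.74), GADD45A (-0.65), SGO1 (-0.57), ID3 (-0.46), MYF5 (-0.41), WDR76 (-0.37) and KLF6 (-0.26). The other genes with a lower value were GJA1 (-0.66), PERP (-0.53), ACTA2 (-0.38) and TAGLN2 (-0.18).

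In the opposite direction, 13 genes had a higher value in the G2/M contrast, with 4 cholesterol synthesis genes among them. These were JPT1 (0.21), SDHD (0.27), ATP5MC3 (0.31), ASPM (0.32), CCNB1 (0.34), RPL7L1 (0.35), IDI1 (0.38), MVD (0.40), FDPS (0.44), TEAD2 (0.45), HMGCS1 (0.65), TUBA4A (0.72) and HSPH1 (0.75).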

How the results depend on the processing

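Between clusters 2 and 4, the counts of genes higher in cluster 2 and in cluster 4 were 1108 and 1042 with DESeq2, 2681 and 2770 with the replicate block and 992 and 996 at 5000 UMIs per cell. Between clusters 6 and 11 they were 590 and 500 with DESeq2 and 1827 and 1649 with the block, and for the difference of these contrasts 1284 and 1457 with the block. Of the 3497 genes called, 2144 were also called with DESeq2, 1907 after thinning and 3497 with the block. Without TMM, without the filter, with all 15 clusters in the fit, without doublets, without cells under 5000 UMIs and with cells reassigned, the counts stayed within 1.5 times. The log2 difference of MYOD1 ran from 1.23 to 1.37 over all settings, and these bounds are the values without replicate 1 and without replicate 2, which allow no test. The share of cells with a MYOD1 UMI was 97.95% unthinned, 96.93% at 10000 UMIs and 89.36% without doublets in cluster 2, and 76.60%, 67.46% and 50.66% in cluster 4. The median of the ID and partner list turned to 0.054 after thinning, and that of the 3 tested endothelial genes lay between -0.59 and 0.0014 when a library was left out. The cause was not tested. Of 129 named genes called, each kept its direction in every setting that gave it a value, and 116 to 129 stayed called where a test was possible. Promoter motifs were planned and were not run, as no promoter sequences were used here. With 1 calf, no difference between animals could be measured.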
